A study of Mus musculus with 28 samples.

Results

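Col1a1, Col1a2, Col3a1, Dcn, Lum, Bgn, Ogn, Fmod, Slc6a13 and Aldh1a2 encode fibrillar collagens, proteins that coat collagen fibrils, and a transporter and an enzyme of meningeal fibroblasts. They were taken by gene symbol from 2 tables of estimated counts of mouse frontal cortex RNA, and all 10 of 10 were found in both tables, among 14888 genes that the tables share (15097 in the social stress table and 15054 in the diabetes table). Whether they differed between stressed or diabetic mice and their controls was asked in 28 libraries of male C57Bl/6 mice, 1 per mouse. The CSS group was 8 mice of 21 weeks under chronic social stress, which had lived in isolation for 7 weeks with 2 confrontations a day with other mice over the final 20 days. The CSS_control group was 8 mice of the same age under control conditions. The T2D group was 6 mice of 30 or 31 weeks with type 2 diabetes induced by 75 mg/kg streptozotocin, a toxin of pancreatic beta cells, and a high-fat diet of 21 weeks with 43.2% of its energy as fat. The T2D_control group was 6 mice of 30 or 31 weeks under control conditions, which the labels do not describe further. RNA came from frontal cortex dissected from 1 hemisphere and was depleted of ribosomal RNA.

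The pia, arachnoid and dura that wrap the brain hold fibroblasts, and fibroblasts also line the larger vessels that enter the cortex. These cells make most of the type I and type III collagen found in and on the brain, whereas neurons, glia and the endothelium make little or none of it. Type I collagen is a triple helix of chains from Col1a1 and Col1a2, and type III collagen is built from Col3a1 chains alone. Decorin (Dcn), lumican (Lum), biglycan (Bgn), osteoglycin (Ogn) and fibromodulin (Fmod) are small leucine-rich proteoglycans, most of which bind collagen fibrils and set their width and spacing. Slc6a13 encodes GAT2, a transporter of GABA and taurine found in the meninges, and Aldh1a2 encodes an enzyme that makes retinoic acid, which the meninges release during cortical development. In tissue RNA, fewer cells of a type and less RNA per cell cannot be told apart.

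The feature shared by the 3 collagens is a coding sequence in which a glycine codon (GGN) opens triplet after triplet of codons, the repeat that lets the chains wind into a helix. Of these 3 genes only Col1a1 passed the edgeR test described below, in the CSS cohort. The opening of the longest such run is shown for each gene, with glycine codons at the head of each triplet in capitals (GENCODE M21 transcripts, GRCm38, plus strand, spliced sequence):
Col1a1 (chr11:94939450-94939911): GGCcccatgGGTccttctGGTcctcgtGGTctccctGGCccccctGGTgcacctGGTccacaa
Col1a2 (chr6:4512405-4515488): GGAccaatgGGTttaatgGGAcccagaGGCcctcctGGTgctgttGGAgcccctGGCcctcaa
Col3a1 (chr1:45323761-45325385): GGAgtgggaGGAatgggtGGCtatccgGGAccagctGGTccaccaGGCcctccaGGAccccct
The run held 338 triplets in Col1a1, 339 in Col1a2 and 344 in Col3a1, which was 69.8%, 74.1% and 70.5% of their codons. The 2 type I chains thus have repeats of almost the same length, on transcripts of 5930 bases (Col1a1) and 5348 bases (Col1a2).

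The 250 bases upstream of the transcript start are shown for 3 of the 10 genes (RefSeq, GRCm38.p6, plus strand). Capitals mark, on either strand, the CCAAT box, the GC box, which reads GGGCGG, and the TATA box, which reads TATAAA:
Col1a2 (chr6:4505368-4505617): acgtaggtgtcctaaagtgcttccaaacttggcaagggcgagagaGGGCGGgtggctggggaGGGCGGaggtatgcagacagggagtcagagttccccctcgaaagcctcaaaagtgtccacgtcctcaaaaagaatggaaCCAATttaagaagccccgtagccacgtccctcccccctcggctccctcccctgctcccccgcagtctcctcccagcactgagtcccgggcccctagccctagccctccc
Col3a1 (chr1:45311288-45311537): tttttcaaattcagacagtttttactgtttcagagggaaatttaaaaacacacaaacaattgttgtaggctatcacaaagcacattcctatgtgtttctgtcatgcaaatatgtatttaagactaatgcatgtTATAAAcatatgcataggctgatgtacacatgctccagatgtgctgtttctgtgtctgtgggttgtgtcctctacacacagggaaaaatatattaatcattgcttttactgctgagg
Slc6a13 (chr6:121300038-121300287): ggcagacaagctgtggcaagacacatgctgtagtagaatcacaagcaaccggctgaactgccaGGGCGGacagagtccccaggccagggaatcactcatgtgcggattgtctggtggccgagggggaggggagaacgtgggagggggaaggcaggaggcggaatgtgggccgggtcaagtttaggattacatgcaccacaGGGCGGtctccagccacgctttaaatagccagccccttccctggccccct
The Slc6a13 window is that of the first of 3 listed starts. RefSeq windows were matched by symbol for 7 of the 10 genes. The CCAAT box was in the Col1a2 window, the GC box in those of Col1a2 and Slc6a13, and the TATA box in that of Col3a1, with no overlap between matches in the windows shown. These are matches of sequence at any distance from the transcript start, and whether they act in the promoter was not tested. Of 32851 windows of this length, 33.8% held the CCAAT box, 32.7% the GC box and 12.4% the TATA box, and the windows of Col1a2 and Col3a1 shared none of the 3.

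Levels are given in CPM, counts scaled to a common library size by TMM. The libraries held 15.2 to 21.9 M estimated counts in CSS, against 14.3 to 37.5 M in CSS_control. T2D libraries held 14.3 to 22.7 M, against 12.1 to 21.6 M for T2D_control. RNA integrity numbers averaged 9.63 ± 0.341 in CSS and 9.53 ± 0.225 in CSS_control (SD, n = 8 each). They averaged 9.05 ± 0.235 in T2D, against 9.37 ± 0.509 in T2D_control (SD, n = 6 each). All 11 of 11 cortical tissue markers were tested, and they summed to 4022 ± 172 CPM in CSS and 4071 ± 186 CPM in CSS_control (SD, n = 8 each), and to 3744 ± 420 CPM in T2D and 3792 ± 410 CPM in T2D_control (SD, n = 6 each). Slc17a7, the vesicular glutamate transporter of cortical excitatory neurons, averaged 569 ± 88.3 CPM in CSS and 544 ± 101.3 CPM in CSS_control, and 560 ± 148 CPM in T2D and 632 ± 103 CPM in T2D_control. None of the 11 was called by edgeR in either cohort, with 2 unadjusted p under 0.05 in CSS and 1 in T2D, all lower. P2ry12, a receptor of microglia, averaged 26.2 ± 7.99 CPM in CSS and 35.4 ± 3.38 CPM in CSS_control (log2 fold change -0.43, adjusted p = 0.106), and was called by DESeq2. Mbp, which encodes a myelin protein, had a log2 fold change of -0.17 in CSS (adjusted p = 0.179). Neurod6, a transcription factor of cortical excitatory neurons, averaged 43.6 ± 15.5 CPM in T2D and 69.6 ± 19.1 CPM in T2D_control (log2 fold change -0.68, adjusted p = 0.825). The part of these markers in the results for the 10 genes was not tested.

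Beside the cortical markers the 10 genes were low, with a summed level of 91.1 ± 27.9 CPM in CSS and 62.5 ± 16.7 CPM in CSS_control (SD, n = 8 each). The sum was 69.6 ± 33.6 CPM in T2D and 49.9 ± 4.30 CPM in T2D_control (SD, n = 6 each). Lum, the lowest, rested on 9.75 to 44.9 estimated counts per library in the CSS cohort and 8.93 to 37.01 in the T2D cohort, and Col1a2, the highest in CPM, on 167 to 692 and 117 to 352.

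Per kb of transcript, Dcn stood first in all 4 groups, Slc6a13 next and Col1a2 after it. In CSS these were 4.68 ± 0.933, 4.56 ± 1.47 and 4.16 ± 1.56 CPM per kb, which differ by less than their spread. In CSS_control Dcn, at 4.09 ± 0.943 CPM per kb, was above Slc6a13 at 2.99 ± 0.678 and Col1a2 at 2.67 ± 0.663 by more than the SD of each. Ogn, Fmod, Bgn and Aldh1a2 followed between 2.74 and 3.47 CPM per kb in CSS and between 2.10 and 2.46 CPM per kb in CSS_control. Neighbours among these 4 differed by less than their spread. Col1a1, Col3a1 and Lum were the last 3 in each group. Col1a1 stood at 1.57 ± 0.607 CPM per kb in CSS and 0.718 ± 0.145 in CSS_control, against 4.16 ± 1.56 and 2.67 ± 0.663 for its partner chain Col1a2. In T2D the same 3 genes led and the same 3 were last, with Dcn at 6.33 ± 7.20 CPM per kb, a spread that rests on 1 library described below, against 2.98 ± 0.534 CPM per kb in T2D_control.

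**Figure D1:**
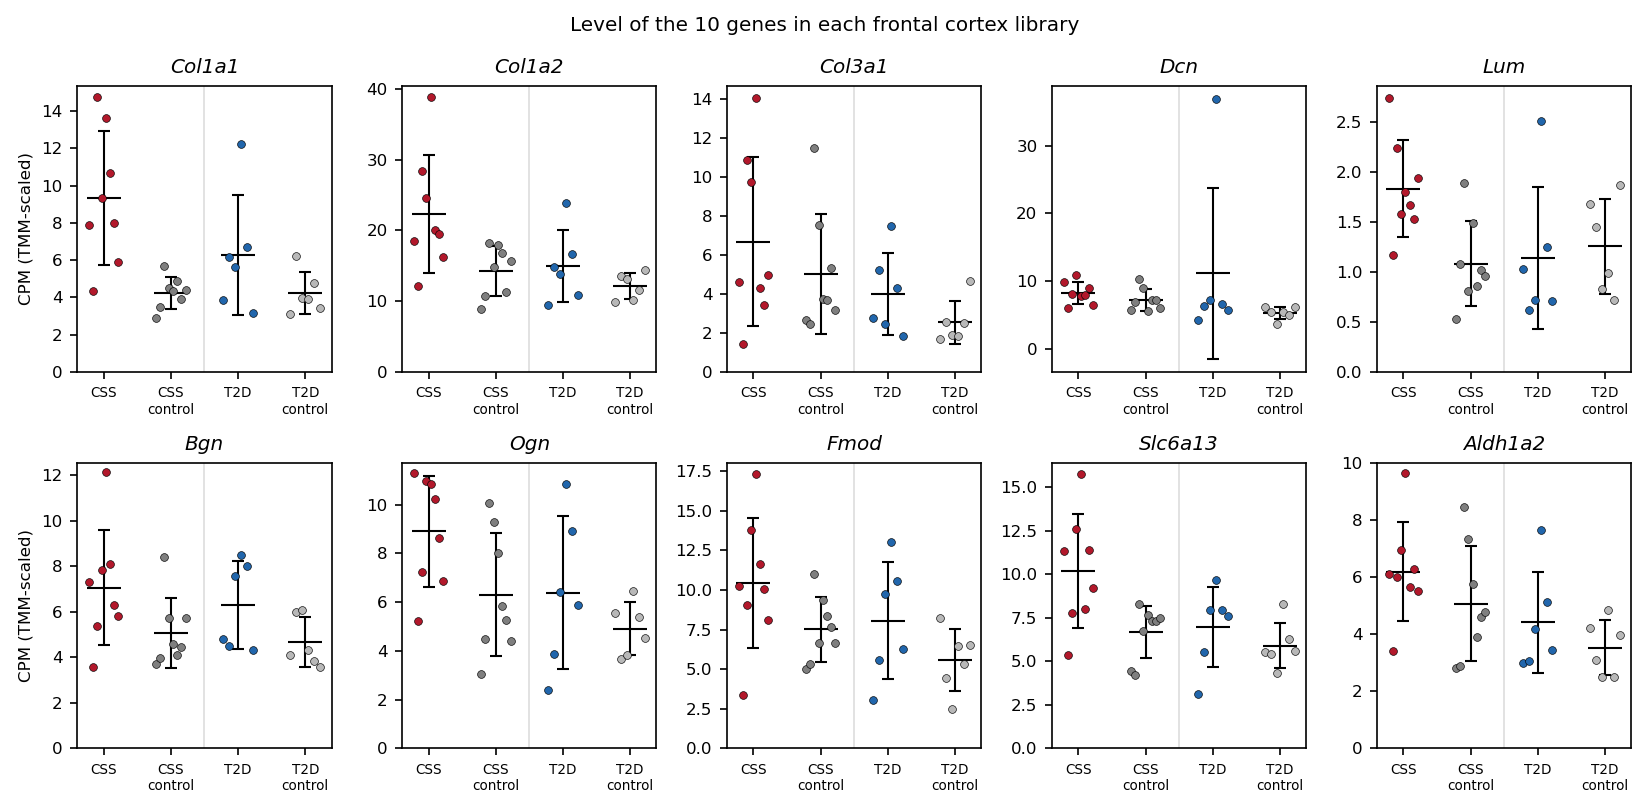
Level of each of the 10 genes (y axis, CPM with TMM-scaled library sizes, own scale per panel) in the 4 groups. Points are libraries (8 in CSS and CSS_control, 6 in T2D and T2D_control), and bars give the mean and SD; 7 of 8 CSS libraries lie above every CSS_control library for Col1a1, and the single high T2D point for Dcn is 36.9 CPM.

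In socially stressed mice, the transcript of Col1a1, the alpha 1 chain of type I collagen, was higher than in controls. It was the only one of the 10 genes that passed the test over all 15097 genes, and 4.52% of all genes passed (683, of which 318 were higher, 2.11%). All 10 genes had a positive log2 fold change, with a median of 0.49 against 0.01 over all genes, of which 51.3% were positive. An unadjusted p under 0.05 was reached by 6 of the 10, all higher, against 11% of all genes in that direction. In diabetic mice none of the 10 passed, and 9 had a positive fold change. The 10 genes were chosen with earlier results of these data known, and their levels varied together between libraries. Counts of them set beside all genes are therefore a description in both cohorts.

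Col1a1 (ENSMUSG00000001506, chromosome 11, 94936224 to 94953042, GRCm38) lay between 4.33 and 14.8 CPM in CSS libraries, with a median of 8.65. In CSS_control libraries it lay between 2.87 and 5.67 CPM, with a median of 4.36. The groups overlapped through 1 library, CSS replicate 2, and the other 7 CSS libraries were above all 8 controls. Means were 9.31 ± 3.60 CPM in CSS and 4.26 ± 0.859 CPM in CSS_control (SD, n = 8 each), a ratio of means of 2.19. The log2 fold change was 1.14 ± 0.21 (SE, adjusted p = 0.00999, edgeR quasi-likelihood test), and 8 of 8 CSS libraries were above the control mean. Its p-value ranked 45th among the 15097. Leaving out each of the 16 libraries in turn gave log2 values of 1.01 to 1.24 with adjusted p between 0.00285 and 0.0280.

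The 2 highest Col1a1 levels belonged to CSS replicates 3 and 5, at 14.8 and 13.7 CPM. These and CSS replicate 4 share the title code MSS_C3, whose meaning the labels do not give, and no such code occurs in both groups. Without these 3 libraries the log2 fold change was 0.79 (adjusted p = 0.0695), so the call ended. It also ended with only the 4 controls whose code is not MC_C1 (1.09, adjusted p = 0.225), a fit in which no gene passed, and not with only the 4 MC_C1 controls (1.19, adjusted p = 0.0305).

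Col1a2 (ENSMUSG00000029661, chromosome 6, 4504814 to 4541544), the other chain of type I collagen, lay between 12.1 and 38.9 CPM in CSS with a median of 19.8. In CSS_control it lay between 8.89 and 18.2 CPM with a median of 15.2. The groups overlapped, with 6 of 8 CSS libraries above every control. The log2 fold change was 0.65 ± 0.21 and did not pass (adjusted p = 0.0795), whereas it passed in DESeq2 (adjusted p = 0.0208) and in edgeR without CSS replicate 2, the lowest CSS library (adjusted p = 0.0366).

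Col3a1 (ENSMUSG00000026043, chromosome 1, 45311538 to 45349706), the chain of type III collagen, gave the most uneven values. It lay between 1.44 and 14.1 CPM in CSS with a median of 4.80, and between 2.47 and 11.5 CPM in CSS_control with a median of 3.71. The high CSS values were those of replicates 3, 4 and 5, at 10.9, 9.75 and 14.1 CPM, while the other 5 CSS libraries had at most 4.96 CPM and CSS_control replicate 3 had 11.5 CPM. The log2 fold change was 0.43 ± 0.42 (adjusted p = 0.594), with 3 of 8 CSS libraries above the control mean, and turned to -0.41 without those 3 libraries (adjusted p = 0.622). Of its exon bases 1.44% are shared with the predicted gene Gm47302 on the same strand, and no other of the 10 genes shares exon bases with another gene.

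Since both type I chains enter the same helix, their transcripts were also set against each other within each library, a comparison chosen after the values were seen. The CPM of Col1a1 divided by that of Col1a2 was 0.351 to 0.531 in CSS with a median of 0.395, and 0.241 to 0.346 in CSS_control with a median of 0.308. All 8 CSS libraries were above all 8 controls. Means were 0.417 ± 0.0715 in CSS and 0.303 ± 0.0320 in CSS_control (SD, n = 8 each), a difference of 0.45 in the log2 ratio (two-sided exact permutation p = 0.000155, adjusted over 2 cohorts 0.000311). That p is the smallest this design allows, and its adjustment does not cover the choice of this ratio after the values were seen. The log2 difference was 0.46 without CSS replicates 3, 4 and 5, and 0.38 and 0.52 with the MC_C1 controls and the other controls. In T2D the ratio was 0.404 ± 0.0703, against 0.353 ± 0.0820 in T2D_control (SD, n = 6 each), with overlapping groups (exact permutation p = 0.262). Whether the ratio changed differently in the 2 cohorts was not tested.

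**Figure D2:**
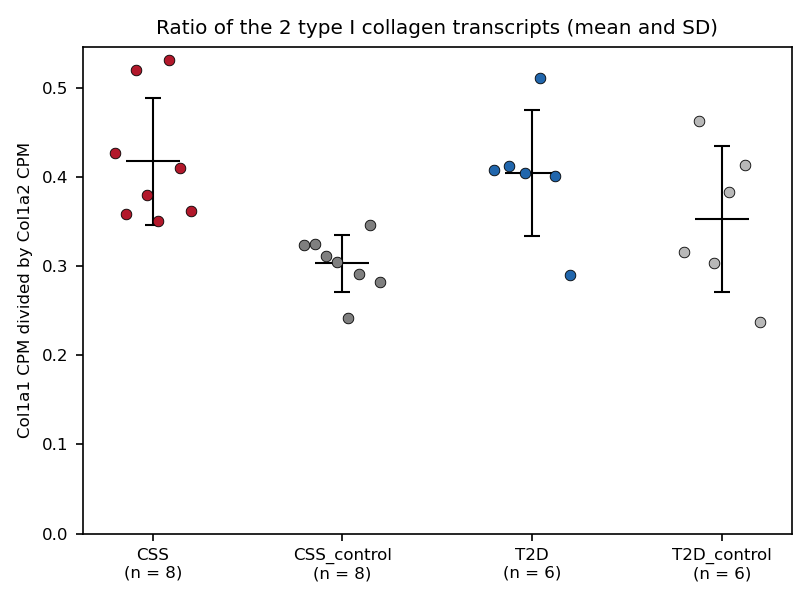
CPM of Col1a1 divided by CPM of Col1a2 in each library (y axis, no unit) for the 4 groups, with mean and SD. The 8 CSS libraries lie at 0.351 and above and the 8 CSS_control libraries at 0.346 and below, while the T2D and T2D_control libraries overlap.

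Among the 5 proteoglycans, lumican had the largest fold change in stressed mice and did not pass the test. Lum (ENSMUSG00000036446, chromosome 10, 97565128 to 97572703) was between 1.17 and 2.75 CPM in CSS with a median of 1.73, and between 0.532 and 1.89 CPM in CSS_control with a median of 0.990. The groups overlapped, but 8 of 8 CSS libraries were above the control mean, and 6 of 8 controls lay below the lowest CSS library. Its log2 fold change was 0.76 ± 0.23 (adjusted p = 0.0574). It passed in limma-voom (adjusted p = 0.0466), in edgeR without CSS replicate 2 (adjusted p = 0.0409) and without CSS_control replicate 3 (adjusted p = 0.0348), and not in DESeq2.

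Osteoglycin and fibromodulin, the one found in bone and connective tissue and the other a binder of type I collagen, were spread widely in each group. Ogn (ENSMUSG00000021390, chromosome 13, 49608046 to 49624501) averaged 8.91 ± 2.27 CPM in CSS and 6.31 ± 2.54 CPM in CSS_control (SD, n = 8 each), a log2 fold change of 0.51 ± 0.22 (adjusted p = 0.190). Fmod (ENSMUSG00000041559, chromosome 1, 134037254 to 134048277) averaged 10.4 ± 4.10 CPM in CSS and 7.51 ± 2.04 CPM in CSS_control, a log2 fold change of 0.48 ± 0.24 (adjusted p = 0.254). For each, 7 of 8 CSS libraries were above the control mean and the exception was CSS replicate 2.

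Biglycan and decorin are the closest relatives among the 5 proteoglycans and carry chondroitin or dermatan sulfate chains. Bgn (ENSMUSG00000031375, chromosome X, 73483602 to 73495933) averaged 7.06 ± 2.52 CPM in CSS and 5.09 ± 1.54 CPM in CSS_control (SD, n = 8 each), a log2 fold change of 0.48 ± 0.21 (adjusted p = 0.183). Dcn (ENSMUSG00000019929, chromosome 10, 97479609 to 97518143) averaged 8.23 ± 1.64 CPM in CSS and 7.19 ± 1.66 CPM in CSS_control, a log2 fold change of 0.20 ± 0.14 (adjusted p = 0.451). Decorin had the smallest of the 10 fold changes in the CSS cohort.

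Of the genes that are not matrix, the GABA and taurine transporter gene had the larger difference in stressed mice. Slc6a13 (ENSMUSG00000030108, chromosome 6, 121300227 to 121337733) was between 5.36 and 15.8 CPM in CSS with a median of 10.3, and between 4.23 and 8.27 CPM in CSS_control with a median of 7.31. The groups overlapped, with 5 of 8 CSS libraries above every control. Its log2 fold change was 0.62 ± 0.19 (adjusted p = 0.0688), and it passed in DESeq2 (adjusted p = 0.0255) and in edgeR without CSS replicate 2 (adjusted p = 0.0267). Aldh1a2 (ENSMUSG00000013584, chromosome 9, 71215789 to 71296243) averaged 6.20 ± 1.74 CPM in CSS and 5.08 ± 2.03 CPM in CSS_control (SD, n = 8 each), with a log2 fold change of 0.30 ± 0.22 (adjusted p = 0.462).

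In the T2D cohort the same genes showed no call, in a table where edgeR called 0 of 15054 genes (0%), DESeq2 called 4 and 5.84% had an unadjusted p under 0.05. None of the 10 reached an unadjusted p under 0.05, and neither DESeq2 nor limma-voom called any of them. Their median log2 fold change was 0.40, and 50.8% of all genes were positive. Col1a1 lay between 3.15 and 12.2 CPM in T2D with a median of 5.88, and between 3.12 and 6.24 CPM in T2D_control with a median of 3.94. The groups overlapped, with 2 of 6 T2D libraries above every control, and the log2 fold change was 0.56 ± 0.28 (adjusted p = 0.825). Col1a2 averaged 15.0 ± 5.12 CPM in T2D and 12.1 ± 1.86 CPM in T2D_control (SD, n = 6 each), with a log2 fold change of 0.30 ± 0.19 (adjusted p = 0.838). Col3a1 averaged 4.02 ± 2.11 CPM in T2D and 2.54 ± 1.12 CPM in T2D_control, with a log2 fold change of 0.64 ± 0.34 (adjusted p = 0.825). Without T2D replicate 4, the highest library for each collagen, these values were 0.26 for Col1a1, 0.12 for Col1a2 and 0.37 for Col3a1.

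Decorin and lumican had values of opposite sign in the diabetic mice. Both kept their sign without T2D replicate 4, while the size of both changed. Dcn was between 4.27 and 36.9 CPM in T2D with a median of 6.39, and between 3.55 and 6.10 CPM in T2D_control with a median of 5.39. The value of 36.9 CPM was that of T2D replicate 4, and the next T2D library had 7.15 CPM. The log2 fold change of 1.08 ± 0.50 (adjusted p = 0.825) was 0.19 without that library. Lum, with a mean of 1.14 ± 0.713 CPM in T2D and 1.26 ± 0.476 CPM in T2D_control (SD, n = 6 each), was the only one of the 10 with a negative value, a log2 fold change of -0.14 ± 0.36 (adjusted p = 0.959). In CPM only T2D replicate 4 was above the control mean of Lum, while on the log2 scale T2D replicate 5 was also above it, by 0.069. Without T2D replicate 4 the log2 fold change of Lum was -0.51 (adjusted p = 0.825).

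The other 3 proteoglycans and the transporter and enzyme genes had positive values in T2D with overlapping groups. Bgn averaged 6.29 ± 1.93 CPM in T2D and 4.66 ± 1.099 CPM in T2D_control (SD, n = 6 each), with 3 of 6 T2D libraries above every control. Ogn averaged 6.40 ± 3.13 CPM in T2D and 4.91 ± 1.09 CPM in T2D_control, and Fmod 8.05 ± 3.69 CPM in T2D and 5.58 ± 1.99 CPM in T2D_control. The log2 fold changes of these 3 were 0.43 ± 0.21, 0.38 ± 0.30 and 0.53 ± 0.33 in that order. Slc6a13 averaged 6.97 ± 2.29 CPM in T2D and 5.91 ± 1.31 CPM in T2D_control, a log2 fold change of 0.23 ± 0.23. Aldh1a2 averaged 4.42 ± 1.78 CPM in T2D and 3.52 ± 0.967 CPM in T2D_control, a log2 fold change of 0.33 ± 0.25. Adjusted p for the 5 genes ran from 0.825 to 0.886 (edgeR), and T2D replicate 4 was the highest T2D library for each.

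**Figure D3:**
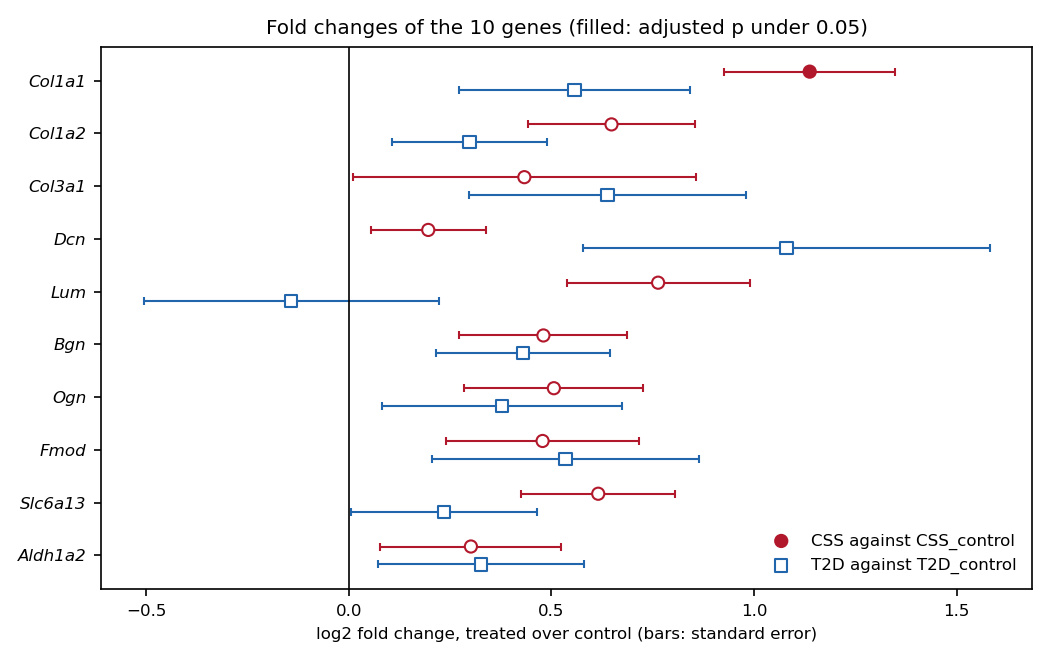
Log2 fold change of each gene (x axis) with its standard error, CSS against CSS_control (circles) and T2D against T2D_control (squares). Only the CSS value of Col1a1, 1.14, is filled for an adjusted p under 0.05, and Lum in T2D is the only point below 0.

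Whether the changes differed between the cohorts was tested in a contrast that subtracted the change in T2D from that in CSS. It called 12 of 14888 genes (0.0806%) and none of the 10. DESeq2 likewise called none of them. Lum had the largest difference, 0.90 ± 0.42 on the log2 scale, with an unadjusted p of 0.0390 and an adjusted p of 0.378. It was the only one with an unadjusted p under 0.05, which 12.4% of all genes had. Dcn differed the other way by -0.88 ± 0.47 (adjusted p = 0.451), a value that was -0.01 without T2D replicate 4. For Col1a1 the difference was 0.58 ± 0.36 (adjusted p = 0.531), so that a greater rise in CSS than in T2D was not shown. The other 7 genes had differences between -0.21 (Col3a1) and 0.38 (Slc6a13), with adjusted p of 0.655 to 0.980.

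Within each cohort the 10 genes tended to vary together from library to library around their group means. Taking each library's deviation from its group mean in log2 CPM, all 45 pairs of genes were positively correlated in the CSS cohort, with a median Pearson r of 0.70 (range 0.39 to 0.91, 16 libraries). In the T2D cohort all 45 pairs were positive as well, with a median of 0.54 (range 0.17 to 0.93, 12 libraries). Closest were Col1a1 with Col1a2 in the CSS cohort (0.91) and Ogn with Slc6a13 in the T2D cohort (0.93), and most distant was Col3a1 with Slc6a13 in the T2D cohort (0.17). Lum had the lowest median r with the other 9 genes in the CSS cohort (0.48), and Bgn in the T2D cohort (0.40). The deviations of both groups of a cohort were pooled. In the T2D cohort 1 library, T2D replicate 4, was highest for 10 of 10 genes, and correlations without it were not computed. These values share libraries, depth and dissection, and are a description.

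The same libraries were high or low for most of the 10 genes. Against the average of its controls, the mean log2 level of the 10 genes was 0.52 ± 0.45 in CSS (SD, n = 8), with CSS replicate 5 highest at 1.14 and CSS replicate 2 lowest at -0.42. CSS replicate 5 had the highest level of 6 of the 10 genes in its cohort. Controls ranged from -0.61 in CSS_control replicate 1 to 0.68 in CSS_control replicate 3, a library that lay above 6 of the 8 CSS libraries. By title code, the 3 MSS_C3 libraries lay between 0.67 and 1.14 and the 3 MSS_C4 libraries between 0.29 and 0.54.

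In the T2D group 1 library was highest throughout. The mean log2 level of the 10 genes was 0.33 ± 0.58 relative to T2D_control (SD, n = 6), and T2D replicate 4, at 1.32, had the highest level of 10 of 10 genes in its cohort. T2D replicate 5 followed with 0.61, and T2D replicate 1 was lowest at -0.34. The 6 T2D_control libraries lay between -0.30 and 0.18. T2D replicates 3, 4 and 5 were above every control, T2D replicate 1 was below every control, and the other two lay among them.

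**Figure D4:**
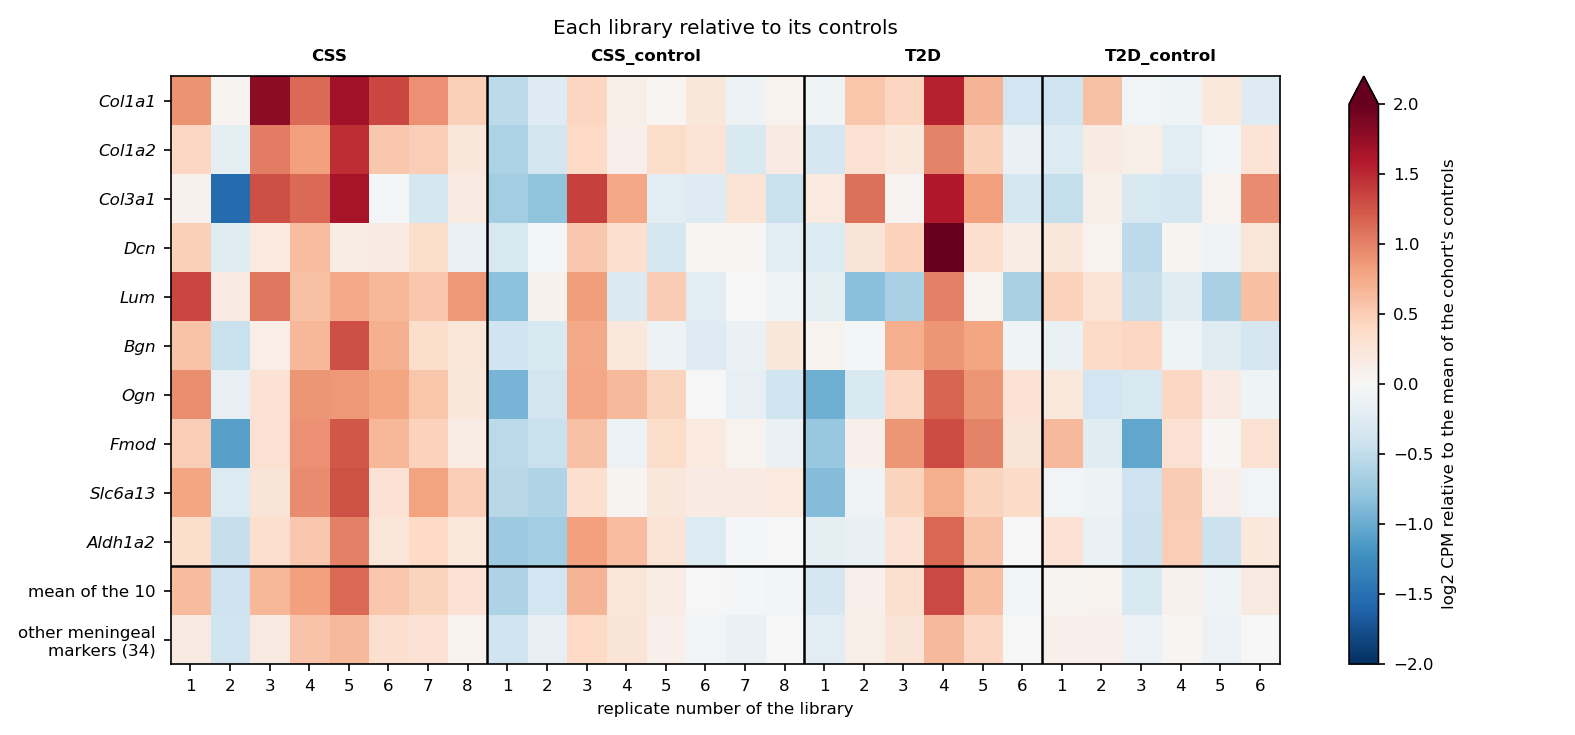
Log2 CPM of each gene in each library as a difference from the average control of its cohort (colour, red higher and blue lower), with the mean of the 10 genes and of 34 other meningeal markers in the last 2 rows. CSS replicate 5 and T2D replicate 4 are red in nearly every row, at a mean of 1.14 and 1.32, and the Dcn value of 2.81 in T2D replicate 4 lies beyond the colour scale.

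Other markers of meningeal fibroblasts and the arachnoid barrier were high in the same libraries as the 10 genes. Of a list of 38 such markers, 34 were tested, and Slc22a2, Foxc2, Wnt6 and Krt18 were not analysed here. In the CSS cohort none of the 34 was called by edgeR, and 29 had a positive fold change with a median of 0.20. An unadjusted p under 0.05 was reached by 7, all higher, against 11% of all genes in that direction. DESeq2 called 3 (Col15a1, Fbln1 and Mgp), but it called more genes of all kinds than edgeR in this cohort, as described below. Those of smallest p in edgeR were Mgp (0.62, adjusted p = 0.0609), an inhibitor of calcification, Fbln1 (0.52, adjusted p = 0.0745), a matrix fibulin, and the collagen gene Col15a1 (0.66, adjusted p = 0.0951). The summed level of the 34 ranged from 573 to 1053 CPM in CSS and from 630 to 949 CPM in CSS_control. Its means were 820.5 and 757.4 CPM. Of these, Ptgds made 330.2 CPM in CSS and 293.3 CPM in CSS_control, and Col6a1 112.7 and 130.6 CPM. The sum thus rests largely on few genes. In the T2D cohort 28 of 34 were positive with a median of 0.25, none was called by any of the 3 tools, and 3 had an unadjusted p under 0.05 (Bmp6 at 0.72, Slc13a4 at 0.56 and Col12a1 at -0.29, adjusted p = 0.825 for each). The sum ranged from 449 to 823 CPM in T2D and from 516 to 676 CPM in T2D_control. The libraries with the highest sum in CSS, CSS_control and T2D were again CSS replicate 5, CSS_control replicate 3 and T2D replicate 4. The mean log2 level of the markers relative to controls, in which each gene weighs alike, was highest in the same libraries (0.65, 0.39 and 0.64). In T2D_control the sum was highest in replicate 4 (676 CPM) and this mean in replicate 2 (0.096). The 10 genes were highest there in replicate 6, whose marker sum was 615 CPM.

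With the mean log2 level of these markers as a covariate, the CSS log2 fold change of Col1a1 was 0.81 ± 0.17 (adjusted p = 0.0333, edgeR). The other 9 genes then lay between -0.22 (Col3a1) and 0.60 (Lum) in CSS, with Fmod at -0.02 and Aldh1a2 at -0.05. In T2D the same covariate left Col1a1 at 0.08 and Dcn at 0.07. The count of called genes in CSS was 169 with this covariate, against 683 without it.

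**Figure D5:**
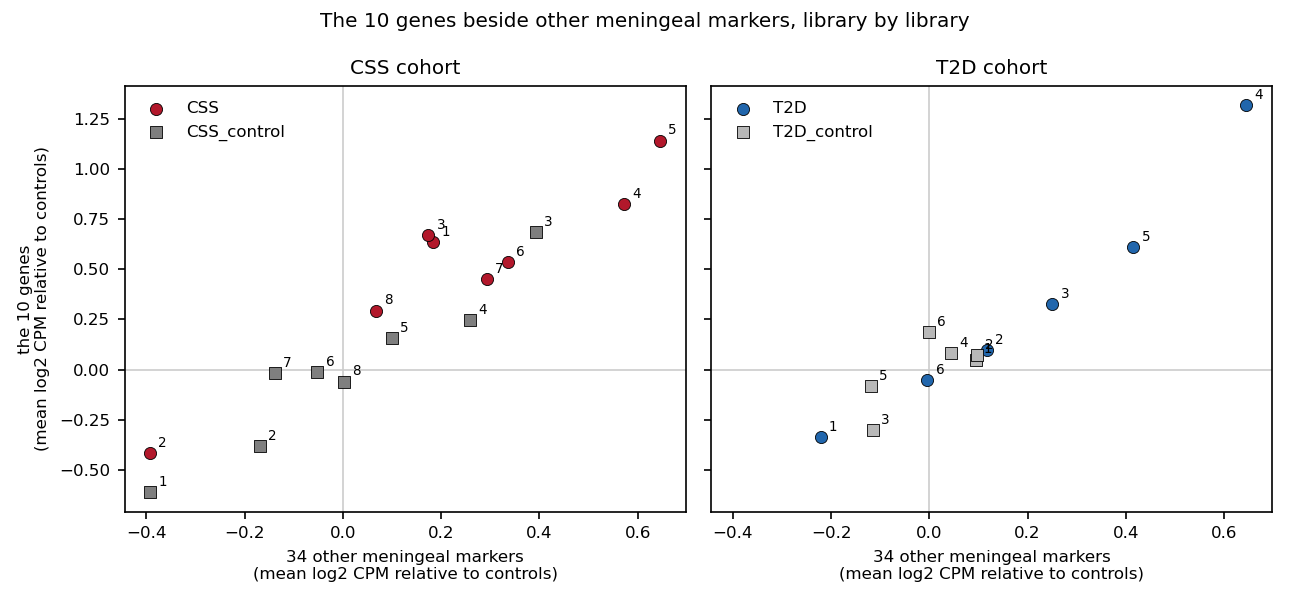
Mean log2 CPM of the 10 genes (y axis) against that of 34 other meningeal markers (x axis) in each library, both relative to the cohort's controls, with replicate numbers beside the points (circles CSS and T2D, squares their controls). CSS replicate 5 (0.65 and 1.14 on the x and y axes) and T2D replicate 4 (0.64 and 1.32) lie at the upper right of their panels.

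Vessel, blood and macrophage markers were summed in the same way. Pericyte and smooth muscle markers summed to 197 to 310 CPM in CSS and 197 to 275 CPM in CSS_control, and to 182.3 to 277 CPM in T2D and 170 to 241 CPM in T2D_control. Anpep, an aminopeptidase of pericytes, averaged 2.65 ± 1.08 CPM in CSS and 1.43 ± 0.421 CPM in CSS_control (log2 fold change 0.87, adjusted p = 0.0555). Ndufa4l2 of the same list went the other way (log2 fold change -0.71, adjusted p = 0.0964). Of the 13 pericyte and smooth muscle markers tested in CSS, 8 had a positive fold change and 5 a negative one. None of the 13 was called by any of the 3 tools, with 4 unadjusted p under 0.05, 3 higher and 1 lower. Endothelial markers summed to 240 to 338 CPM in CSS and 249.0 to 298 CPM in CSS_control, with 2 of 15 called, both higher in CSS, against 2.11% of all genes: Mfsd2a, a lipid transporter of the blood-brain barrier (0.35 ± 0.09, adjusted p = 0.0330), and the organic anion transporter gene Slco1a4 (0.24 ± 0.06, adjusted p = 0.0331). An unadjusted p under 0.05 (edgeR) was reached by 5 of the 15 endothelial markers in CSS, all higher, against 11% of all genes in that direction. Red blood cell genes were 5 of 5 positive in CSS with a median of 0.82, and all 5 had an unadjusted p under 0.05. None was called by edgeR and 3 by DESeq2, which called more genes in this cohort than edgeR. The red blood cell genes summed to 133.2 to 575 CPM in CSS and 101.9 to 231 CPM in CSS_control. Those of smallest p were the globin genes Hbb-bt (0.92, adjusted p = 0.0623) and Hba-a2 (0.82, adjusted p = 0.0937) and the haem synthesis gene Alas2 (0.90, adjusted p = 0.0692). In the T2D cohort T2D replicate 4 was highest for red blood cell genes (561 CPM, next 362 CPM in T2D_control replicate 4), for endothelial markers (296 CPM, next 271 CPM in T2D_control replicate 1) and for pericyte and smooth muscle markers (277 CPM, next 241 CPM in T2D_control replicate 2). Border macrophage markers summed to 17.8 to 39.7 CPM in CSS and 18.6 to 40.3 CPM in CSS_control, with 6 of 10, among them Lyve1 and Pf4, not analysed here. Of the 4 tested in CSS, 2 had a positive fold change and 2 a negative one. Stab1, a scavenger receptor gene, had the smallest p of these (0.46, adjusted p = 0.261), while Cd163 stood at -0.39 (adjusted p = 0.372). The part of all these markers in the results for the 10 genes was not tested.

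The stroma of the choroid plexus also holds fibroblasts, and 4 of 10 choroid plexus markers were tested in the T2D cohort. Their sum averaged 143.6 CPM in T2D, of which the transthyretin gene Ttr made 114.0 CPM. In T2D_control the sum averaged 77.0 CPM, with Ttr at 54.3 CPM. The sum thus rests mostly on 1 gene, and whether choroid plexus tissue was present was not tested. It was high in 3 libraries, at 385 CPM in T2D replicate 1, 376 CPM in T2D replicate 4 and 369 CPM in T2D_control replicate 3. The other 9 libraries had 48.0 CPM or less. Of these 3, T2D replicate 1 and T2D_control replicate 3 had the lowest mean level of the 10 genes in their groups and T2D replicate 4 the highest. Dcn was 4.27 CPM in T2D replicate 1 and 3.55 CPM in T2D_control replicate 3, against 36.9 CPM in T2D replicate 4. In the CSS cohort 3 of the 10 choroid plexus markers (Kl, Clic6 and Prlr) were tested, summing to 5.59 to 38.5 CPM in CSS and 9.71 to 31.3 CPM in CSS_control, and Ttr, which encodes the secreted protein transthyretin, was not analysed here in that cohort.

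Of 8 other fibrillar collagen genes none was called by edgeR in the CSS cohort, with a median log2 fold change of -0.04 and 1 unadjusted p under 0.05 in each direction, and DESeq2 called 1, Col11a2. Col11a2 averaged 29.2 ± 3.49 CPM in CSS and 35.5 ± 5.84 CPM in CSS_control (SD, n = 8 each, log2 fold change -0.29, adjusted p = 0.0906). Col5a2, whose chain joins those of type I collagen, stood at 0.28 on the log2 scale (adjusted p = 0.179). Col24a1 stood at -0.49 (adjusted p = 0.285), and 4 of the 8 were positive. In the T2D cohort 5 of 8 were positive with a median of 0.03 and no unadjusted p under 0.05.

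Enzymes and chaperones of collagen synthesis included 3 that passed among 30 tested in the CSS cohort, 2 higher and 1 lower, against 4.52% called over all genes. P4ha1, the catalytic subunit of prolyl 4-hydroxylase, averaged 59.9 ± 10.7 CPM in CSS and 45.1 ± 5.70 CPM in CSS_control (SD, n = 8 each), and rose by 0.41 ± 0.10 on the log2 scale (adjusted p = 0.0279). Serpinh1, the collagen chaperone HSP47, averaged 13.6 ± 1.45 CPM in CSS and 10.9 ± 1.43 CPM in CSS_control, and rose by 0.31 ± 0.09 (adjusted p = 0.0499). P4hb, the other subunit of prolyl 4-hydroxylase and a general protein disulfide isomerase, fell by 0.23 ± 0.06 (adjusted p = 0.0433). The list's median was 0.07 against 0.01 over all genes. In the T2D cohort none of 29 was called by any of the 3 tools and 2 had an unadjusted p under 0.05, both higher (Loxl1, 0.76, and Tll1, 0.79), while P4ha1 stood at -0.42 (adjusted p = 0.825). The difference of P4ha1 between the cohorts was 0.82 ± 0.22 (adjusted p = 0.131), which edgeR did not call and DESeq2 did.

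Other proteoglycans of the family were tested for 5 of 12 genes, with none called by any of the 3 tools in either cohort and 1 unadjusted p under 0.05, that of Prelp in CSS. Prelp, a proteoglycan of basement membranes, averaged 8.49 ± 2.36 CPM in CSS and 6.44 ± 1.24 CPM in CSS_control (SD, n = 8 each, log2 fold change 0.40, adjusted p = 0.157). Tsku stood at 0.42 (adjusted p = 0.250) and Aspn at 0.20 (adjusted p = 0.626). Proteases that cut collagen and their inhibitors gave 9 tested genes with none called and 1 unadjusted p under 0.05 in CSS, that of the inhibitor gene Timp3 (0.22, adjusted p = 0.205). In T2D the smallest p was that of the protease gene Ctsk (-0.49, adjusted p = 0.825). The remaining 6 of the list, which include Mmp9, Mmp13 and Timp1, were not analysed here.

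Genes of TGF-beta signalling, a pathway that drives collagen transcription in fibroblasts, gave no call among 20 tested in CSS and 19 in T2D, with 3 and 1 unadjusted p under 0.05. Thbs1, an activator of latent TGF-beta, had a positive fold change in both cohorts, 0.63 ± 0.22 in CSS (adjusted p = 0.104) and 0.62 ± 0.22 in T2D (adjusted p = 0.825). For the partners of Aldh1a2 in retinoic acid synthesis and signalling, none of 16 was called in CSS and none of 15 in T2D, with 2 unadjusted p under 0.05 in each. Crabp1, which encodes a retinoic acid binding protein, stood at -0.59 in CSS (adjusted p = 0.152), and Aldh1a1, another enzyme that makes retinoic acid, at 0.29 in T2D (adjusted p = 0.825). The receptor gene Rara had log2 fold changes of 0.31 in CSS (adjusted p = 0.170) and -0.35 in T2D (adjusted p = 0.825), and their difference of 0.65 ± 0.20 did not pass (adjusted p = 0.182). DESeq2 and limma-voom called none of the TGF-beta or retinoic acid genes in either cohort.

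The genes most like the 10 were sought by the mean of 2 within-group Pearson correlations, 1 per cohort, with the mean of the 10 genes over 14888 genes. The 8 highest outside the 10 were Aebp1 (0.91), Gjb2 (0.90), Slc6a20a (0.90), Foxc1 (0.85), Fn1 (0.85), Ptgds (0.83), Gfap (0.83) and Fat4 (0.83), over 16 and 12 libraries. Aebp1 encodes a collagen-binding secreted protein, Gjb2 a connexin of the meninges, Foxc1 a transcription factor of meningeal development and Fn1 fibronectin. Gjb2, Slc6a20a, Foxc1 and Ptgds were on the meningeal list, whereas Gfap is the intermediate filament of astrocytes. Fat4, a protocadherin, was the only one of the 8 called in CSS, at 48.0 ± 8.52 CPM in CSS and 37.4 ± 4.45 CPM in CSS_control (SD, n = 8 each, log2 fold change 0.36, adjusted p = 0.0449). Fn1 averaged 56.4 ± 18.8 CPM in CSS and 38.1 ± 8.32 CPM in CSS_control (log2 fold change 0.57, adjusted p = 0.0799), but 40.5 ± 12.3 CPM in T2D and 43.6 ± 8.09 CPM in T2D_control (log2 fold change -0.11, adjusted p = 0.943).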

How the data were processed

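Frontal cortex RNA was sequenced from TruSeq Stranded Total RNA libraries after Ribo-Zero Gold depletion, per the labels' protocols, and the submitters' processing notes name Salmon 1.1.0 and mm10. The authors deposited estimated counts per gene, 1 table per cohort, with 28 columns used. How transcripts were summed to genes, and whether counts were length-scaled, is not given in the sources used here. Estimated counts were rounded to whole numbers. Each cohort was fitted by itself with edgeR 4.0.16 (R 4.3.3): TMM, filterByExpr, robust quasi-likelihood test, Benjamini-Hochberg adjustment over all genes, threshold 0.05. The difference between cohorts was a contrast over all 4 groups and 14888 shared genes. The standard error of a log2 fold change is its size over the square root of F. DESeq2 1.42.0, limma 3.58.1 (voom), other scalings and filters, RNA integrity, a meningeal marker score, title-code subsets and left-out libraries were alternatives. Ratios used exact permutation tests (SciPy 1.17.1).

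All 10 genes were named. Genes of 14 other lists were to be named by smallest p, up to 3 per cohort; not all of these are printed, 1 list is not reported here, and Slc17a7 was named outside this rule after its values were seen. Likeness named 8 genes. The 10 genes and the lists were chosen with earlier results of these data known. The ratio of Col1a1 to Col1a2, and leaving out CSS replicates 3, 4 and 5, were chosen after seeing the values. Library scores average log2 CPM with a prior count of 2. Transcript lengths are from GENCODE M21 (GRCm38, the assembly also called mm10). Totals of 12.1 to 37.5 M estimated counts per library left the lowest gene, Lum, with 8.93 to 44.9.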

Additional observations from a re-analysis of the deposited data

Results flagged for a closer look

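Of 40 sets of values (10 genes in 4 groups), 4 held a library far from the rest of its group, where about 2 would be flagged by chance. Decorin (Dcn) reached 36.9 CPM in T2D replicate 4, and the next T2D library had 7.15 CPM. Lum reached 2.51 CPM in the same library, with 1.25 CPM in the next. T2D replicate 4 was also highest of its cohort for the other 8 genes, without standing as far from its group. Col3a1 reached 4.69 CPM in T2D_control replicate 6, with 2.58 CPM in the next control. Bgn reached 8.41 CPM in CSS_control replicate 3, with 5.75 CPM in the next control, and that library was above the control mean for 10 of 10 genes.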

How the results depend on the processing

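The count of 683 genes called in CSS was 1313 with DESeq2, 169 with the meningeal marker score as a covariate, 1130 with only MC_C1 controls, 0 with only the other controls, 79 without CSS replicates 3, 4 and 5, and 222 to 794 with 1 library left out (222 without CSS replicate 6, 251 without CSS_control replicate 2, 276 without CSS_control replicate 1, 360 without CSS replicate 5, 402, 414 and 429 without CSS_control replicates 3, 5 and 4, and 439 without CSS replicate 8). Of the 10 genes, 1 was called, against 3 with DESeq2, 2 with limma-voom, 0 with only the other controls, 0 without CSS replicates 3, 4 and 5, and 1 to 4 with 1 library left out. DESeq2 called 4 genes in T2D. The 12 genes called for the difference were 130 with DESeq2, 6 with upper-quartile scaling, 41 with the marker score, 0 with a filter of 2 CPM, limma-voom or RNA integrity as a covariate, and 0 to 32 with 1 library left out. The cause of these changes was not tested.

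Signs turned with the marker score for Col3a1 (-0.22), Fmod (-0.021) and Aldh1a2 (-0.046) in CSS, and for Col1a2 (-0.030), Ogn (-0.19), Fmod (-0.056), Slc6a13 (-0.10) and Aldh1a2 (-0.068) in T2D. Without CSS replicates 3, 4 and 5 they turned for Col3a1 in CSS (-0.41) and for the differences of Col1a2 (-0.029) and Bgn (-0.15). The difference of Aldh1a2 was 0.10 with limma-voom, 0.053 with RNA integrity and 0.0044 with the marker score. With 1 library left out, ranges that crossed 0 were -0.51 to 0.020 for Lum in T2D and, for the differences, -0.12 to 0.18 for Bgn, -0.24 to 0.12 for Fmod, -0.15 to 0.18 for Aldh1a2, -0.48 to 0.081 for Col3a1 and -0.052 to 0.33 for Ogn. None of these values was called. The filter of 2 CPM removed Lum.

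Replicate numbers did not pair the samples: deviations of same-numbered libraries correlated above 0.1 in 3 of 8 pairs in CSS and 1 of 6 in T2D, and 2 of 8 CSS libraries and 0 of 6 T2D libraries correlated best with their own number. With the replicate block, 478 genes were called in CSS, 2 of the 10 among them (Col1a1, 1.06, adjusted p = 0.00460, and Col1a2, 0.60, adjusted p = 0.0203), and 0 in T2D. All p-values measure the spread between these mice, and depth limits Lum most.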
